A study of Sus scrofa with 3 samples.

Results

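BMAL1 (ENSSSCG00000013397), BHLHE41 (ENSSSCG00000028552) and RORA (ENSSSCG00000004576) are 3 transcription factor genes of the circadian clock, and they are followed here across the liver libraries of 3 pig breeds. They were matched by Ensembl gene ID in tables of 25322 gene IDs, with BMAL1 listed under its current symbol in place of the older ARNTL. The libraries came from male pigs at postnatal day 90 and were made from total RNA of whole liver. One library each was made for the Enshi black pig, a Chinese local breed, for the Chinese wild boar, and for the Large White pig, a European commercial breed. The labels give no treatment and no engineered allele. The sources used here do not give the hour of sampling or the feeding state of the animals. With 1 library per breed, breed, animal, hour of sampling and library cannot be told apart, and no difference below has a replicate check. The 3 genes were chosen by their counts in these same libraries, for how they differed between them, so their values are a description and no test was made.

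The clock is a feedback loop of transcription that runs in most cells, the hepatocyte included. BMAL1 pairs with CLOCK or with its relative NPAS2 and switches on genes that carry an E-box, among them the genes of its own repressors, the period (PER) and cryptochrome (CRY) proteins. RORA is a nuclear receptor that activates the BMAL1 gene in a further loop, at sites where the REV-ERB receptors NR1D1 and NR1D2 repress it. BHLHE41, also called DEC2, is a basic helix-loop-helix repressor that binds E-boxes and dampens activation by BMAL1 and CLOCK. In mammalian liver the mRNA of many of these genes changes over the day, and BMAL1 peaks at roughly the opposite phase to its E-box targets.

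The libraries held between 19982627 and 20654571 gene counts. A level is given as CPM, a gene's counts over the library total, brought to a common size with TMM, and 1 count was worth 0.0463 CPM in Enshi black, 0.0505 CPM in Chinese wild boar and 0.0512 CPM in Large White. Values in parentheses are 95% exact intervals that cover counting error only. Of 8 hepatocyte markers 7 had an ID, and together they reached 108161 CPM in Enshi black, 92400 CPM in Chinese wild boar and 61502 CPM in Large White. Most of that difference was ALB, with 66508 CPM in Enshi black, 53648 CPM in Chinese wild boar and 25310 CPM in Large White. Of the 6 expressed markers only ALB passed the size rule given below in Enshi black over Large White, at 2.63 (2.62 to 2.64), where 4.69% of expressed IDs were higher. The others had folds of 1.51 (AHSG), 1.27 (HNF4A), 1.12 (TF), 0.743 (CPS1) and 0.619 (TTR). ALB also passed in Chinese wild boar over Large White, at 2.12, where 2.96% were higher. The ID matched to the hepatocyte marker APOA1 had 2 counts in Enshi black, 2 in Chinese wild boar and 0 in Large White. A gene is called higher or lower between 2 libraries when the bound of its fold interval nearest to 1 lay at 2-fold or beyond. This size rule was applied to the 13228 gene IDs that reached 1 CPM in some library.

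BMAL1 had 46 counts in Enshi black, 208 in Chinese wild boar and 156 in Large White. These correspond to 2.13 CPM (1.56 to 2.84) in Enshi black, 10.5 CPM (9.13 to 12) in Chinese wild boar and 7.98 CPM (6.78 to 9.34) in Large White. Enshi black was the low library, and its interval did not overlap those of the others. Against Large White, BMAL1 was 3.75-fold lower in Enshi black (2.68 to 5.32) and against Chinese wild boar 4.93-fold lower (3.57 to 6.94). Chinese wild boar against Large White gave a fold of 1.32 (1.06 to 1.63), which did not pass the size rule. In whole liver, fewer cells of a type and less RNA per cell cannot be told apart, for BMAL1 or any other gene.

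BHLHE41 went the other way, at far fewer counts. It had 94 counts in Enshi black, 15 in Chinese wild boar and 24 in Large White, or 4.36 CPM in Enshi black (3.52 to 5.33), 0.758 CPM in Chinese wild boar (0.424 to 1.25) and 1.23 CPM in Large White (0.787 to 1.83). Only Enshi black stood clear of 1.83 CPM, the upper end of the Large White interval. BHLHE41 in Enshi black was 3.55-fold higher than in Large White (2.25 to 5.81) and 5.75-fold higher than in Chinese wild boar (3.31 to 10.7). The intervals of the other libraries overlapped, and Chinese wild boar over Large White gave 0.617 (0.301 to 1.23), an interval that holds 1, so that the order of these libraries was not resolved at this depth.

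RORA was highest in the Chinese wild boar library. It had 552 counts in Enshi black, 880 in Chinese wild boar and 322 in Large White, which is 25.6 CPM in Enshi black (23.5 to 27.8), 44.5 CPM in Chinese wild boar (41.6 to 47.5) and 16.5 CPM in Large White (14.7 to 18.4). No interval overlapped another, so the order from Chinese wild boar through Enshi black to Large White was resolved beyond counting error. RORA was 2.70-fold higher in Chinese wild boar than in Large White (2.37 to 3.08). The fold of Enshi black over Large White was 1.55 (1.35 to 1.79) and that of Enshi black over Chinese wild boar 0.575 (0.516 to 0.640), neither of which passed.

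**Figure D1:**
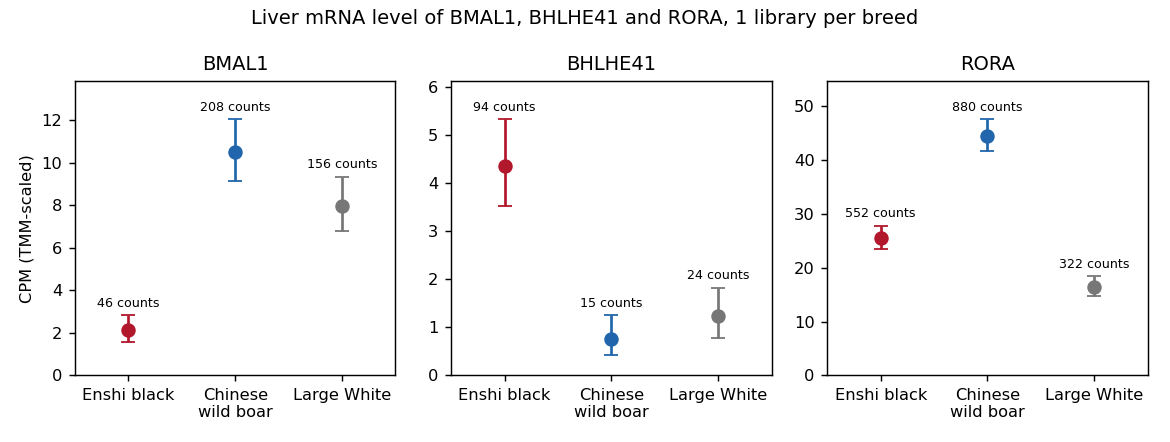
Level of BMAL1, BHLHE41 and RORA (CPM, linear axes from 0) in 1 liver library for each of 3 breeds; points are the measured level, bars the 95% exact Poisson interval of counting error, and labels the raw counts. BMAL1 is lowest in Enshi black at 2.13 CPM, BHLHE41 highest there at 4.36 CPM, and RORA highest in Chinese wild boar at 44.5 CPM.

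For Enshi black against Large White, 1 of the 3 genes was thus higher (BHLHE41) and 1 lower (BMAL1), where 13.1% of all 13228 expressed IDs were called, 4.69% as higher and 8.39% as lower. For Chinese wild boar against Large White, RORA was the 1 gene called, as higher, where 6.7% of expressed IDs were called, 2.96% higher and 3.74% lower. For Enshi black against Chinese wild boar, 1 was higher and 1 lower, where 11.1% of expressed IDs were called, 4.03% as higher and 7.1% as lower. BHLHE41 was higher in Enshi black than in both other libraries, as were 1.71% of expressed IDs, and BMAL1 lower than in both, as were 4.59%. These contrasts chose the genes, so nothing is read from their share. The comparisons also share libraries, so a value that is low in Enshi black enters 2 of them.

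A list of 20 core clock genes gave the setting. Of these, 15 had a matched ID and 13 were expressed, while PER3, CIART, NR1D1, BHLHE40 and TEF had no matched ID and were not analysed here. The 13 include BMAL1, BHLHE41 and RORA, which were chosen by these values, so their calls carry no weight in the counts below. In Enshi black against Large White 2 of the 13 were higher, 3 lower and 8 neither, where 4.69% of expressed IDs were higher and 8.39% lower. Apart from the chosen genes, PER2 was higher and NPAS2 and NFIL3 lower. The median log2 fold of the 13 was 0.32, against 0.01 over all expressed IDs. Their mean log2 fold was -0.090, on the other side of 0, and with total counts in place of TMM 4 were higher and 3 lower. In Chinese wild boar against Large White only RORA, a chosen gene, passed, where 2.96% of expressed IDs were higher and 3.74% lower. The median was -0.018, against 0.0011 over all expressed IDs, and the mean 0.011. Between Enshi black and Chinese wild boar 2 were higher in Enshi black, 4 lower and 7 neither, where 4.03% of expressed IDs were higher and 7.1% lower. Apart from the chosen genes, PER2 was higher and PER1, CRY1 and NFIL3 lower. The median was -0.31, against 0.0095 over all expressed IDs, and the mean -0.10.

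**Figure D2:**
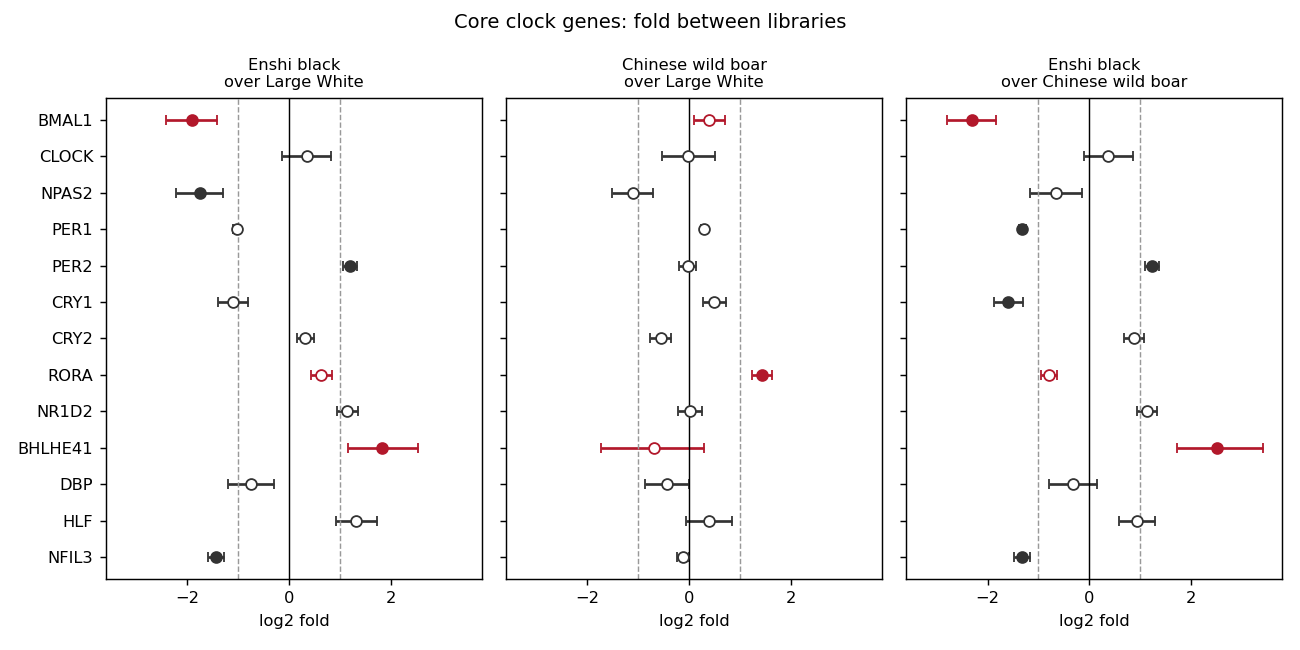
Log2 fold of scaled counts for the 13 expressed core clock genes in the 3 comparisons, with 95% exact binomial intervals of counting error; red marks BMAL1, RORA and BHLHE41, filled points passed the size rule, and dashed lines stand at 2-fold. In the comparisons that include Enshi black the genes spread to both sides of 0, while only RORA passed between Chinese wild boar and Large White.

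Among the partners of BMAL1, NPAS2 was lowest in Enshi black too, but was called lower there only against Large White. NPAS2 had 2.55 CPM in Enshi black (55 counts), 3.99 CPM in Chinese wild boar (79 counts) and 8.60 CPM in Large White (168 counts), and was 3.37-fold lower in Enshi black against Large White (2.47 to 4.66). Its fold of Enshi black over Chinese wild boar was 0.638 (0.444 to 0.912), which did not pass. For Chinese wild boar over Large White, NPAS2 had a fold of 0.464 (0.351 to 0.610), which did not pass and lies on the other side of 1 from that of BMAL1. CLOCK had 4.17 CPM in Enshi black, 3.23 CPM in Chinese wild boar and 3.28 CPM in Large White, and its intervals overlapped in all libraries. BMAL2, the paralog of BMAL1, had 1 count in Enshi black and 0 in the others, where the limit set by a count of 0, taken as 3 counts, is 0.152 CPM in Chinese wild boar and 0.154 CPM in Large White.

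The repressors of the main loop split within each pair of paralogs. PER1 had 112 CPM in Enshi black, 279 CPM in Chinese wild boar and 227 CPM in Large White, and was 2.5-fold lower in Enshi black than in Chinese wild boar (2.38 to 2.62). PER2 was instead highest in Enshi black, with 69.4 CPM, against 29.6 CPM in Chinese wild boar and 30.2 CPM in Large White. It was 2.30-fold higher in Enshi black against Large White (2.09 to 2.53) and 2.34-fold higher than in Chinese wild boar (2.13 to 2.58). CRY1 had 6.53 CPM in Enshi black, 19.7 CPM in Chinese wild boar and 14.0 CPM in Large White, and was 3.02-fold lower in Enshi black than in Chinese wild boar (2.48 to 3.68). CRY2 had 32.0 CPM in Enshi black, 17.4 CPM in Chinese wild boar and 25.6 CPM in Large White and passed in no comparison. PER1 and CRY1 were therefore lowest in Enshi black, as BMAL1 was, and PER2 and CRY2 highest there, as BHLHE41 was.

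In the loop that drives BMAL1 transcription, RORA and its competitor differed in the order of the libraries. The repressor NR1D2 had 33.2 CPM in Enshi black, 15.2 CPM in Chinese wild boar and 14.9 CPM in Large White, with a fold of Enshi black over Large White of 2.22 (1.93 to 2.55) that did not pass. NR1D2 was thus highest in Enshi black, whereas RORA was highest in Chinese wild boar. RORB, a paralog of RORA, had no count in any library.

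Of the clock's output regulators, NFIL3, which represses D-box genes, had 23.0 CPM in Enshi black, 57.3 CPM in Chinese wild boar and 62.0 CPM in Large White. It was 2.70-fold lower in Enshi black against Large White (2.43 to 3.0) and 2.49-fold lower than in Chinese wild boar (2.24 to 2.78). The D-box activators HLF and DBP passed in no comparison. HLF had 9.45 CPM in Enshi black, 4.95 CPM in Chinese wild boar and 3.79 CPM in Large White, and DBP, itself an E-box target, 3.29 CPM in Enshi black, 4.09 CPM in Chinese wild boar and 5.53 CPM in Large White. Over the 13 genes, 6 had their highest level in Enshi black (CLOCK, PER2, CRY2, NR1D2, BHLHE41 and HLF), 6 their lowest (BMAL1, NPAS2, PER1, CRY1, DBP and NFIL3), and 1 a middle level (RORA). For CLOCK and DBP the step to the next library lay within counting error. PER2 and BHLHE41 were called higher in Enshi black than in both other libraries, as were 1.71% of expressed IDs. BMAL1 and NFIL3 were called lower than in both, as were 4.59%.

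Ratios between counts of clock genes within a library do not depend on how libraries are scaled, and the length of each gene cancels when a ratio is set against the same ratio in another library. For each 100 counts of PER2 there were 3.07 counts of BMAL1 in Enshi black (2.24 to 4.12), 35.5 in Chinese wild boar (30.2 to 41.6) and 26.4 in Large White (22.0 to 31.6). Per 100 counts of NR1D2, BMAL1 had 6.42 counts in Enshi black (4.66 to 8.66), 69.3 in Chinese wild boar (57.8 to 83.0) and 53.4 in Large White (43.7 to 65.1). Both ratios were lower in Enshi black with no overlap. This follows from the levels given above, since BMAL1 was chosen by these counts and PER2 and NR1D2 were highest in Enshi black. The ratio of BMAL1 to NPAS2 behaved differently, at 83.6 counts per 100 in Enshi black (55.3 to 126), 263 in Chinese wild boar (202 to 346) and 92.9 in Large White (74.2 to 116). Here Enshi black and Large White overlapped and Chinese wild boar stood apart. For BHLHE41 per 100 counts of BMAL1, both chosen genes, Enshi black was highest at 204 counts, against 7.21 in Chinese wild boar and 15.4 in Large White.

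Per 100 counts of its competitor NR1D2, RORA had 77.1 counts in Enshi black (68.9 to 86.3), 293 in Chinese wild boar (257 to 336) and 110 in Large White (93.8 to 130). The same order held for PER1 per 100 PER2, at 161 counts in Enshi black, 942 in Chinese wild boar and 753 in Large White, and for CRY1 per 100 CRY2, at 20.4 counts in Enshi black, 113 in Chinese wild boar and 54.8 in Large White.

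**Figure D3:**
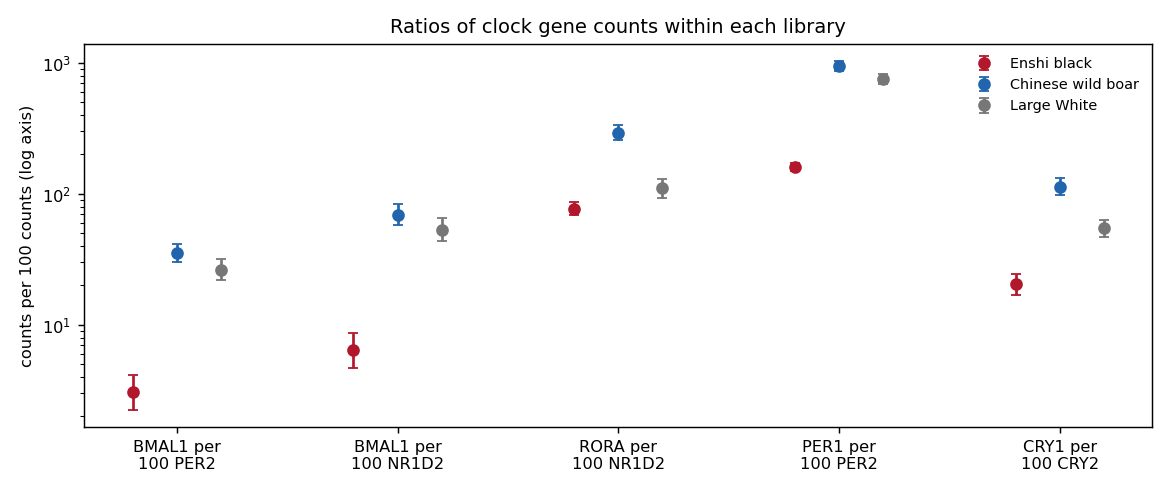
Counts of one clock gene per 100 counts of another within each library (log axis), with 95% exact binomial intervals of counting error; red is Enshi black, blue Chinese wild boar and grey Large White. All 5 ratios shown are lowest in Enshi black and highest in Chinese wild boar, with BMAL1 per 100 PER2 at 3.07 against 35.5. Each has a denominator gene that is highest in Enshi black, and BHLHE41 per 100 BMAL1, not shown, is highest in Enshi black.

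Genes reported, mostly in mouse, to be driven through ROR response elements were counted as a list that includes BMAL1. BMAL1 was chosen for how it differed between these libraries, so its calls and its part in the medians carry no weight. Of its 9 expressed members 5 were lower and none higher in Enshi black against Large White, where 8.39% and 4.69% of expressed IDs were, with a median log2 fold of -1.15 against 0.01 over all expressed IDs. Besides BMAL1, NPAS2 and NFIL3, these were APOC3, an apolipoprotein gene with a fold of 0.452 (0.449 to 0.454), and CYP7B1, an oxysterol hydroxylase of bile acid synthesis. CYP7B1 had 14.2 CPM in Enshi black, 34.0 CPM in Chinese wild boar and 40.8 CPM in Large White, and was 2.88-fold lower in Enshi black against Large White (2.52 to 3.30). Against Chinese wild boar, 6 members were lower in Enshi black and 1 higher, where 7.1% and 4.03% of expressed IDs were. The higher one was LPIN1, a phosphatidate phosphatase and transcriptional coregulator, with 24.4 CPM in Enshi black and 8.79 CPM in Chinese wild boar. In Chinese wild boar against Large White, where RORA was higher, 1 member was higher and none lower, where 2.96% and 3.74% of expressed IDs were, and the median was -0.02. That gene was the hormone FGF21, with 2.78 CPM in Enshi black, 20.6 CPM in Chinese wild boar and 1.13 CPM in Large White. FGF21 was also 1 of the 6 members lower in Enshi black than in Chinese wild boar, at 7.42-fold (5.65 to 9.90). Its fold of Enshi black over Large White was 2.47 (1.49 to 4.23), which did not pass.

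The list of reported E-box targets, which includes BHLHE41, had 8 expressed members. BHLHE41 was chosen in the same way as BMAL1, so its calls and its part in the medians carry no weight. In Enshi black against Large White 2 were higher (BHLHE41 and PER2) and none lower, where 4.69% and 8.39% of expressed IDs were, with a median log2 fold of 0.86 against 0.01 over all expressed IDs. Against Chinese wild boar the same 2 were higher in Enshi black and 1, PER1, was lower, where 4.03% and 7.1% of expressed IDs were, with a median of 0.52 against 0.0095. In Chinese wild boar against Large White none passed, with a median of -0.0035. WEE1, a cell cycle kinase, had 3.24 CPM in Enshi black, 2.38 CPM in Chinese wild boar and 1.13 CPM in Large White, and NAMPT, which makes a precursor of NAD, 116 CPM in Enshi black, 75.7 CPM in Chinese wild boar and 78.3 CPM in Large White, and neither passed. These lists share members with the core clock list and are not independent of it.

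Most cofactors through which these factors act did not pass the size rule, and neither did most of the 13228 expressed IDs. Of 12 cofactors of the ROR and REV-ERB receptors, 2 were lower and none higher in Enshi black against Large White, where 8.39% and 4.69% of expressed IDs were, with a median log2 fold of -0.29 against 0.01 over all expressed IDs. CREBBP, an acetyltransferase coactivator, had 39.2 CPM in Enshi black, 124 CPM in Chinese wild boar and 154 CPM in Large White, and was 3.94-fold lower in Enshi black against Large White (3.65 to 4.26). Its paralog EP300 had 120 CPM in Enshi black, 118 CPM in Chinese wild boar and 150 CPM in Large White and did not pass. PPARGC1B, a coactivator of nuclear receptors, had 1.81 CPM in Enshi black, 2.43 CPM in Chinese wild boar and 7.37 CPM in Large White, and was lower in both than in Large White. It was the 1 of 12 that was called in Chinese wild boar against Large White, where 6.7% of expressed IDs were. CREBBP was the 1 of 12 called in Enshi black against Chinese wild boar, where 11.1% were.

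Of 10 kinases, ubiquitin ligase subunits and other modifiers of clock proteins, only PRKAA1 passed. Over all expressed IDs, 13.1% were called in Enshi black against Large White and 11.1% in Enshi black against Chinese wild boar. In Chinese wild boar against Large White, 6.7% were. PRKAA1, a catalytic subunit of AMPK, had 19 counts in Enshi black, 82 in Chinese wild boar and 59 in Large White, and was 3.43-fold lower in Enshi black against Large White (2.02 to 6.09) and 4.71-fold lower than in Chinese wild boar (2.83 to 8.21). Beside the same shares, none of the 6 expressed coregulators of BMAL1 and CLOCK passed in any comparison, and nothing is read from so few genes. The most abundant of them on the mean over libraries were NONO, with 267 CPM in Enshi black, 179 CPM in Chinese wild boar and 190 CPM in Large White, and WDR5, with 40.6 CPM in Enshi black, 45.3 CPM in Chinese wild boar and 41.1 CPM in Large White.

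Liver genes known to be under clock control were counted as a further list. Of 10 such outputs 2 were higher and 1 lower in Enshi black against Large White, where 4.69% and 8.39% of expressed IDs were. Set against Chinese wild boar, 4 were higher and 2 lower in Enshi black, where 4.03% and 7.1% of expressed IDs were. GYS2, the liver glycogen synthase, had 320 CPM in Enshi black, 80.7 CPM in Chinese wild boar and 108 CPM in Large White, and was 2.95-fold higher in Enshi black against Large White (2.81 to 3.10). TSKU, a secreted protein, was 2.27-fold higher (2.21 to 2.34). PDK4, the kinase that shuts down pyruvate dehydrogenase, had 27.8 CPM in Enshi black, 166 CPM in Chinese wild boar and 75.9 CPM in Large White, and was 2.73-fold lower in Enshi black against Large White (2.48 to 3.0). In Chinese wild boar against Large White, PDK4 was the 1 higher output, and NOCT and CYP7A1 were the 2 lower ones, where 2.96% and 3.74% of expressed IDs were higher and lower. NOCT, nocturnin, had 36.9 CPM in Enshi black, 13.3 CPM in Chinese wild boar and 32.5 CPM in Large White.

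The genes whose pattern over the 3 libraries was most like each of the 3 were found by the distance between log2 profiles centred on their mean. For BMAL1 they were AMT, SPAG8, COPE and ACP2, at distances of 0.13 to 0.17 log2 units. COPE, a subunit of the coatomer, had 38.1 CPM in Enshi black, 154 CPM in Chinese wild boar and 124 CPM in Large White. For BHLHE41 they were S1PR3, CENPF, TIPARP and ADAM23, at 0.16 to 0.25. S1PR3, a sphingosine phosphate receptor, had 12 CPM in Enshi black, 2.58 CPM in Chinese wild boar and 3.53 CPM in Large White. For RORA they were ECH1, HADHB, INHBE and HSD17B7, at 0.059 to 0.10. ECH1, an enzyme of fatty acid breakdown, had 33.3 CPM in Enshi black, 61.3 CPM in Chinese wild boar and 21.9 CPM in Large White. Within the core clock list the nearest profiles were CRY1 for BMAL1 (0.59) and PER2 for BHLHE41 (0.82). With 3 points per profile, many genes lie close to any pattern.

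Whole liver holds several cell types. BHLHE41 is also a B cell regulator in mouse, and 2 of the 3 matched B cell markers had their highest level in Enshi black as well. CD79B, a chain of the B cell receptor, had 5.33 CPM in Enshi black, 0.859 CPM in Chinese wild boar and 0.972 CPM in Large White. MS4A1 had 2.78 CPM in Enshi black, 0.303 CPM in Chinese wild boar and 0.614 CPM in Large White. Both were called higher in Enshi black than in both others, as were 1.71% of expressed IDs. They reached 1 CPM only in Enshi black, the library where they are high, so these calls carry no weight. POU2AF1, the third matched gene of the 5 on the B and plasma cell list, went the other way, with 1.85 CPM in Enshi black, 13.5 CPM in Chinese wild boar and 8.80 CPM in Large White. The list summed to 9.96 CPM in Enshi black, 14.7 CPM in Chinese wild boar and 10.4 CPM in Large White, and none of its matched markers was at 0. The part of B cells in the BHLHE41 difference was not tested.

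**Figure D4:**
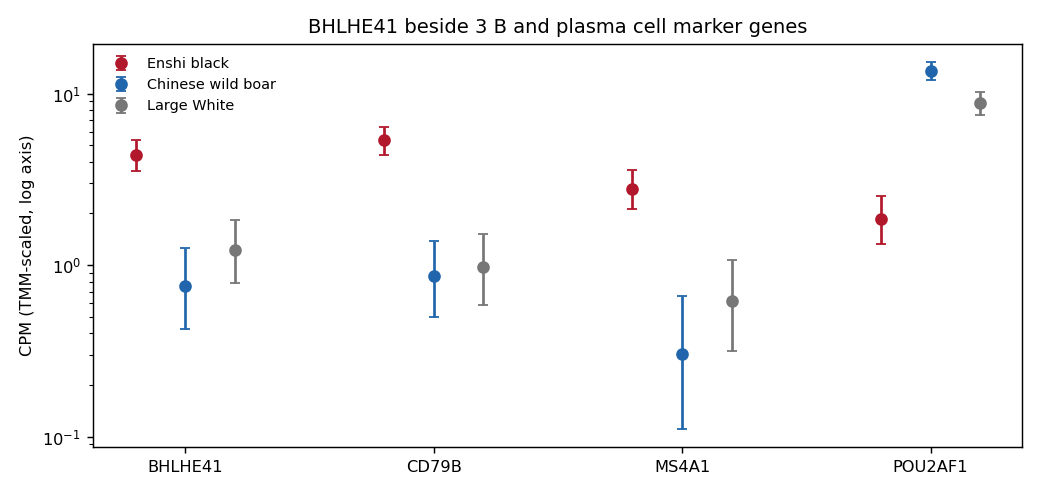
Level of BHLHE41 and of the 3 matched B and plasma cell markers (CPM, log axis) in each library, with 95% exact Poisson intervals of counting error; red is Enshi black, blue Chinese wild boar and grey Large White. BHLHE41, CD79B and MS4A1 are highest in Enshi black, and POU2AF1 is lowest there at 1.85 CPM.

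Markers of other cell types differed between the libraries too. Of 6 Kupffer cell and macrophage markers, 4 were lower in Enshi black against Large White (CSF1R, MARCO, CLEC4F and LYZ), where 8.39% of expressed IDs were, and 2 lower than in Chinese wild boar, where 7.1% were. The list summed to 678 CPM in Enshi black, 782 CPM in Chinese wild boar and 882 CPM in Large White, most of which was C1QA, a complement gene that passed in no comparison, with 548 CPM in Enshi black, 517 CPM in Chinese wild boar and 522 CPM in Large White. Of 5 expressed stellate cell and fibroblast markers, 4 were higher in Enshi black against Large White, where 4.69% of expressed IDs were, with list sums of 1003 CPM in Enshi black, 507 CPM in Chinese wild boar and 292 CPM in Large White. T and NK cell markers summed to 114 CPM in Enshi black, 51.7 CPM in Chinese wild boar and 114 CPM in Large White. Of 5 such markers, 2 were lower in Chinese wild boar than in Large White, where 3.74% of expressed IDs were. Against Chinese wild boar 3 were higher in Enshi black, where 4.03% were. Lymphoid cells also express RORA, and their part in its level was not tested. The erythroid marker HBB, a globin gene, had 36.5 CPM in Enshi black, 182 CPM in Chinese wild boar and 102 CPM in Large White. Like BMAL1, HBB was called lower in Enshi black than in both others, as were 4.59% of expressed IDs. ALAS2, the other matched erythroid marker, went the other way, with 7.74 CPM in Enshi black, 3.44 CPM in Chinese wild boar and 2.92 CPM in Large White. ALAS2 passed in no comparison. This list summed to 44.3 CPM in Enshi black, 186 CPM in Chinese wild boar and 105 CPM in Large White, most of which was HBB. Of 2 expressed neutrophil markers CSF3R was called lower in Enshi black and in Chinese wild boar than in Large White, where 8.39% and 3.74% were. CSF3R had 6.02 CPM in Enshi black, 4.50 CPM in Chinese wild boar and 33.9 CPM in Large White. Among 4 sinusoidal endothelial markers STAB1 was called the same way, with folds over Large White of 0.372 for Enshi black and 0.337 for Chinese wild boar. KDR was called higher in Enshi black than in Chinese wild boar, where 4.03% of expressed IDs were. None of 3 cholangiocyte markers passed in any comparison, and nothing is read from so few genes. The share of expressed IDs called was 13.1% in Enshi black against Large White and 11.1% in Enshi black against Chinese wild boar. It was 6.7% in Chinese wild boar against Large White. Of the matched markers of these lists only LUM, a fibroblast marker, was at 0 in a library, Large White. Their part in the BMAL1, BHLHE41 and RORA differences was not tested.

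The nearest protein-coding neighbours with a matched ID, as ordered in the RefSeq annotation of Sscrofa11.1, did not share the pattern of BMAL1 or RORA. BTBD10, next to BMAL1, had 6.81 CPM in Enshi black, 3.84 CPM in Chinese wild boar and 4.50 CPM in Large White. RASSF10, on the other side of BMAL1, had 3 counts in Enshi black, 1 in Chinese wild boar and 6 in Large White. ICE2, next to RORA, had 11.1 CPM in Enshi black, 9.80 CPM in Chinese wild boar and 8.80 CPM in Large White. TLN2, on the other side of RORA, had 0.834 CPM in Enshi black, 1.21 CPM in Chinese wild boar and 3.02 CPM in Large White. SSPN, next to BHLHE41, was like it highest in Enshi black, with 6.72 CPM, against 2.12 CPM in Chinese wild boar and 3.17 CPM in Large White. SSPN was 3.17-fold higher in Enshi black than in Chinese wild boar. RASSF8, on the other side of BHLHE41, had 12.5 CPM in Enshi black, 11.4 CPM in Chinese wild boar and 13.2 CPM in Large White. No gene of that annotation overlapped BMAL1 or BHLHE41, while a pseudogene with no matched ID overlaps RORA. The submitters' notes name the older build Sscrofa10.2, so how reads of such a feature were assigned in these counts is not known.

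The 8326 expressed genes with a matched RefSeq span were put in 10 groups of nearly equal size by span, over which the folds of Enshi black varied, and BMAL1 and BHLHE41 differed against that trend. BMAL1, with a RefSeq span of 129538 bases, lay in a group of long genes whose median log2 fold of Enshi black over Large White was 0.13, and BHLHE41, with 5100 bases, in the group of shortest genes, whose median was -0.13. Relative to genes of like span the fold of BMAL1 was 0.244 (0.172 to 0.341) and that of BHLHE41 3.89 (2.47 to 6.38). RORA, with 763804 bases, was 3.04-fold higher in Chinese wild boar than in Large White on this scale (2.67 to 3.46). None of the 3 genes passed the size rule in any comparison once counting error was widened by variation between animals, taken as a coefficient of 0.4.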

How the data were processed

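The authors deposited raw whole-number read counts per Ensembl gene ID, 1 table per library. HTSeq 0.6.1, TopHat2 2.1.0, the build Sscrofa10.2 and edgeR 3.16.3 appear in the submitters' processing notes, and the labels' protocols describe paired-end Illumina sequencing. The sources used here give neither the annotation release, nor the strand setting, nor the handling of reads with several alignments. The 5 rows that name no gene stayed out of all totals. Reads with no feature were 19.0% of counted reads in Enshi black, 18.9% in Chinese wild boar and 22.0% in Large White, and ambiguous reads 1.89%, 2.49% and 2.18%.

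Library totals were multiplied by TMM factors, computed in R 4.3.3 with edgeR 4.0.16 (1.04 in Enshi black, 0.979 in Chinese wild boar and 0.978 in Large White). Folds carry 95% exact conditional binomial (Clopper-Pearson) intervals, and CPM values exact Poisson intervals, from Python 3.11.15 and scipy 1.17.1. Without molecular identifiers, both cover counting error only. Log2 folds for medians and profiles used a prior count of 2. Symbols came from a table of Ensembl IDs. The 3 genes and all gene lists were chosen with earlier results of these data known. Some genes are not reported here and were left out of the lists. The text names every core clock gene kept. From each other list it takes, per comparison, up to 4 members that passed the size rule with the bound farthest from 1, or 2 of highest mean CPM, and per gene the 4 nearest profiles among named genes of at least 5 CPM on average; WEE1, NAMPT, EP300, APOC3 and markers that did not pass were named after their values were seen. Simulated data were used to test the size rule. Alternatives were DESeq2 1.42.0 size factors, total counts, other filters, bounds and intervals, an assumed variation between animals, and a correction for gene span. No coordinates and no sequences are given.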

Additional observations from a re-analysis of the deposited data

How the results depend on the processing

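The 3 genes kept their direction under every alternative tried. BMAL1, BHLHE41 and RORA also kept their side of the size rule with DESeq2 size factors, total counts, no expression filter and the correction for gene span, and BMAL1 and RORA with a filter of 10 CPM, which removes BHLHE41. Calls were lost at a nearest bound of 4 and at an assumed coefficient of variation of 0.4, at unchanged folds: for Enshi black over Large White 0.267 (BMAL1) and 3.55 (BHLHE41), for Chinese wild boar over Large White 2.70 (RORA), and for Enshi black over Chinese wild boar 0.203 (BMAL1) and 5.75 (BHLHE41). At an assumed coefficient of 0.2 the first 3 of these were lost, and with the wider exact interval BHLHE41 in Enshi black over Large White. At a bound of 1.5, RORA in Enshi black over Chinese wild boar (0.575) was called lower.

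Of 13 core clock genes, 5 passed in Enshi black over Large White, where 13.1% of expressed IDs did. The count of 5 became 7 with total counts, which put the median log2 fold over all expressed IDs at 0.10. It became 3 with 10 CPM, 9 at a bound of 1.5 and 3 with the wider exact interval. At a bound of 4 and at both assumed coefficients it was 0. The 1 gene in Chinese wild boar over Large White became 2 at a bound of 1.5, and 0 at a bound of 4 and at both assumed coefficients. The 6 genes in Enshi black over Chinese wild boar became 2 at a coefficient of 0.2, and 0 at 0.4 and at a bound of 4. With total counts NR1D2 (2.37) and HLF (2.67) passed as higher in Enshi black over Large White, and NR1D2 (2.34) in Enshi black over Chinese wild boar. PER2 in Enshi black over Large White no longer passed after the span correction, at 2.11-fold. As a mean in place of a median, the list's log2 fold was -0.090 for Enshi black over Large White and 0.011 for Chinese wild boar over Large White. Apart from settings that remove genes or widen intervals, the cause was not tested. No paired analysis was possible because each breed has 1 library.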

Other observations

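PER1 is a glucocorticoid response gene as well as a clock gene, and it is 1 of the 7 expressed members of a glucocorticoid response list. In Enshi black against Chinese wild boar 5 of the 7 were lower, PER1 among them, and 1 was higher, where 7.1% and 4.03% of expressed IDs were, with a median log2 fold of -1.28. KLF9, a transcription factor, had 41.4 CPM in Enshi black, 147 CPM in Chinese wild boar and 68.2 CPM in Large White, and FKBP5, a cochaperone of the glucocorticoid receptor, 66.9 CPM in Enshi black, 148 CPM in Chinese wild boar and 47.8 CPM in Large White. Both were called higher in Chinese wild boar than in Large White, at 2.15-fold (2.02 to 2.30) and 3.09-fold (2.87 to 3.33). In that comparison 2 of the 7 were higher, 1 lower and 4 neither, where 2.96% of expressed IDs were higher and 3.74% lower. TAT, tyrosine aminotransferase, had 280 CPM in Enshi black, 681 CPM in Chinese wild boar and 517 CPM in Large White. SGK1, a kinase, ran the other way, with 121 CPM in Enshi black, 36.1 CPM in Chinese wild boar and 81.6 CPM in Large White. SGK1 was the 1 member called lower in Chinese wild boar than in Large White, at a fold of 0.442 (0.404 to 0.483). RORA and FKBP5 were thus both highest in Chinese wild boar and lowest in Large White, an order that no other member of this list had. PER1, KLF9 and TAT were lowest in Enshi black, and SGK1 was lowest in Chinese wild boar. In Enshi black against Large White none of the 7 passed, where 13.1% of expressed IDs did.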
